A study of Rattus norvegicus with 10 samples.

Results

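Solute carriers are the large superfamily of membrane proteins that move ions, metals, amino acids, sugars, nucleotides and other small molecules into and out of cells and organelles. The 43 genes described here carry a symbol that starts with Slc and a digit, and stand among the 1999 rows of the study's differential expression table that were used here, out of 32402 genes in the deposited counts and 16286 genes with enough counts to be compared. They were selected on measured values, because that table is ordered by the adjusted p of the same comparison that is described here. Whether these genes are higher or lower after knockdown is therefore a description and carries no test. The rule also leaves out genes that the study lists as Creb3l1 targets in KEGG pathways, which removed none of the 43. The 2 genes of the set that stand last in the rows used were Slc36a4, at -0.74 (standard error 0.25) on the log2 scale, and Slc10a3, at 0.41 (standard error 0.13). The next genes below them could not be named, because the counts hold Ensembl identifiers and symbols were taken from those rows alone. The 397 other rat symbols of this family in RefSeq could not be linked to the counts and were not analysed here.

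RNA was measured in the supraoptic nucleus (SON) of 5 male Sprague-Dawley rats, whose age is not given. In every animal the left SON received an adeno-associated virus with a non-targeting short hairpin RNA (control shRNA), and the right SON a virus with a hairpin against Creb3l1 (Creb3l1 shRNA, or knockdown). The tissue was collected 3 weeks later as a punch, which gave 5 control and 5 knockdown SONs. Both groups thus carried a virus and differed in the hairpin and in the side of the brain, and hairpin and side cannot be told apart. The vector is named as pGFP-A-shAAV, packaged as AAV1/2, and the methods state no restriction of the hairpins to one cell type. Food and water were freely available in both groups.

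The SON holds magnocellular neurones, which make vasopressin or oxytocin in very large amounts and release it into the blood. Creb3l1 is a transcription factor of the endoplasmic reticulum membrane that is cut and moves to the nucleus. Such secretory cells depend on carriers for amino acids, for mitochondrial metabolites, for the sugar nucleotides used in the Golgi, for metals that secretory enzymes bind, and for the ions that set pH, calcium and membrane potential. Solute carriers are also expressed in astrocytes, vessels and choroid plexus, and a punch of tissue measures them from many cell types together.

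The deposited counts per SON, summed over genes, were between 29020948 and 34382889. Levels are given as TMM-normalised CPM, the count of a gene scaled to a fixed library size after the library size was corrected for composition with edgeR's TMM factors. CPM is not corrected for gene length, so levels are compared between SONs and not between genes. Creb3l1 itself was at 26.9 ± 5.35 (mean ± SD over 5 SONs) CPM without knockdown and 11.99 ± 3.96 with it, or 44.6% of control, and means below are given the same way, with n = 5 in each group. Of 56 marker genes listed for 9 cell types, 2 had a symbol in the rows used, so the identity of the tissue could not be checked from its markers. Those rows are ordered by the adjusted p of this comparison, so these 2 stand there by their change. The other markers of the same cell types were not examined. Sim1, a transcription factor of magnocellular neurones, was at 55.3 ± 11.1 CPM in control SONs against 24.5 ± 8.11 after knockdown. Nefm, the medium neurofilament of neurones, was at 156 ± 28.6 and 247 ± 38.98 CPM. The part of these shifts in the solute carrier values was not tested, and in tissue fewer cells of a type and less RNA per cell cannot be told apart.

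Promoters are shown for the 4 genes of the set that the study lists as Creb3l1 targets and whose promoter held letters searched below. The list joins a Creb3l1 ChIP-seq peak with a change in the SONs described here, so it is no independent evidence. The ChIP-seq used pooled tissue of the SON and the paraventricular nucleus from water-deprived rats, not these SONs. The promoter of Slc27a4 lies at chr3:33472653-33472952 on the plus strand, Slc30a1 at chr13:106021769-106022068 on the plus strand, Slc39a9 at chr6:106022608-106022907 on the plus strand and Slc4a1ap at chr6:30653544-30653843 on the minus strand. Each run is the RefSeq sequence of rat build GRCr8 from 250 bases before to 50 bases after the annotated start, and capitals mark the motifs found.
Slc27a4: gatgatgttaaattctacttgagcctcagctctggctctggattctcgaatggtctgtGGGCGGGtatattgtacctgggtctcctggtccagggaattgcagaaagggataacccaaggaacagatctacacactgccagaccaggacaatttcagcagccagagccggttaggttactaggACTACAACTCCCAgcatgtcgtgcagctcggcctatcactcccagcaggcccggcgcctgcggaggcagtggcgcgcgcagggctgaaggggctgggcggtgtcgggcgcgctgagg
Slc30a1: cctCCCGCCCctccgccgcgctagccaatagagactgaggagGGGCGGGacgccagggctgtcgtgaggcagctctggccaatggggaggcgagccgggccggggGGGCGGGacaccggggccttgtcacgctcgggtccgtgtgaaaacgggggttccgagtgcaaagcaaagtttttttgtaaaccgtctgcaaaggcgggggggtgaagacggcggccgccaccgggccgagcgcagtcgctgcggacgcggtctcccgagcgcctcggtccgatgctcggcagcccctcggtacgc
Slc39a9: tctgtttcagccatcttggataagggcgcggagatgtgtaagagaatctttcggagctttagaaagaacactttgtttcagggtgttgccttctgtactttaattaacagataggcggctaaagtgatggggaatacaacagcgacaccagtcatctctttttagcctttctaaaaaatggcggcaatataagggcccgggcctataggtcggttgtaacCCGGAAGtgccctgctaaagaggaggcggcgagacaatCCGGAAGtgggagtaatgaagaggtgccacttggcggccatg
Slc4a1ap: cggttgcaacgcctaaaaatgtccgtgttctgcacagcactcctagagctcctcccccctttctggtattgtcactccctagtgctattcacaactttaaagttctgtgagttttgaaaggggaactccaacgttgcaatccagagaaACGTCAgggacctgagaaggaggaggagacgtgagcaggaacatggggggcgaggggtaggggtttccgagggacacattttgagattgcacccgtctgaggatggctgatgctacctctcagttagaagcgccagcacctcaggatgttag

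The letters searched, on both strands, were cores of motifs named by the study. They were CACGTG of E-boxes, ACGTCA of sites for the CREB family, CCGGAAG of ETS factors and CCCGCCC of GC boxes. The longer ACTACANNTCCCA was searched with its central letters left free. Motifs that hold each of these except CACGTG were tested with Creb3l1 in the study's reporter assays. Slc27a4 had CCCGCCC starting at -192 and ACTACANNTCCCA at -67 from the start. Slc30a1 had CCCGCCC at -247, -208 and -145, Slc39a9 had CCGGAAG at -30 and at 8, and Slc4a1ap had ACGTCA at -102, with no overlap between these matches. Of the other genes of the set on that list, Slc25a26 had no promoter in the RefSeq table and Slc35a4 had none of the letters. Promoters were held for 33 of the 43 genes, and 11 of these had none of the letters. CCCGCCC was in 18 of the 33, against 22.7% of all 33469 rat promoters of this length. CACGTG was in 5 (6.42% of all), ACGTCA in 4 (7.94%), CCGGAAG in 5 (8.75%) and ACTACANNTCCCA in 1 (1.43%). The median GC content was 61.7% in the 33 promoters and 51.7% in all, and these matches are descriptions of letters, not of sites in use.

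After Creb3l1 knockdown 25 of the 43 genes were lower and 18 were higher, with log2 fold changes (knockdown over control) from -1.16 for Slc17a4 to 1.05 for Slc27a4. The mitochondrial carriers were mostly lower, 8 of 9, and all 4 sugar and nucleotide sugar carriers were higher. Most differences were well under 2-fold, and 5 genes reached it, with Slc17a4 and Slc44a5 lower and Slc27a4, Slc4a5 and Slc35a4 higher, against 2.36% of all genes tested. The smallest difference was that of Slc30a4, at -0.20. The median log2 fold change was -0.29 over the 43 genes and 0.04 over all genes tested.

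**Figure D1:**
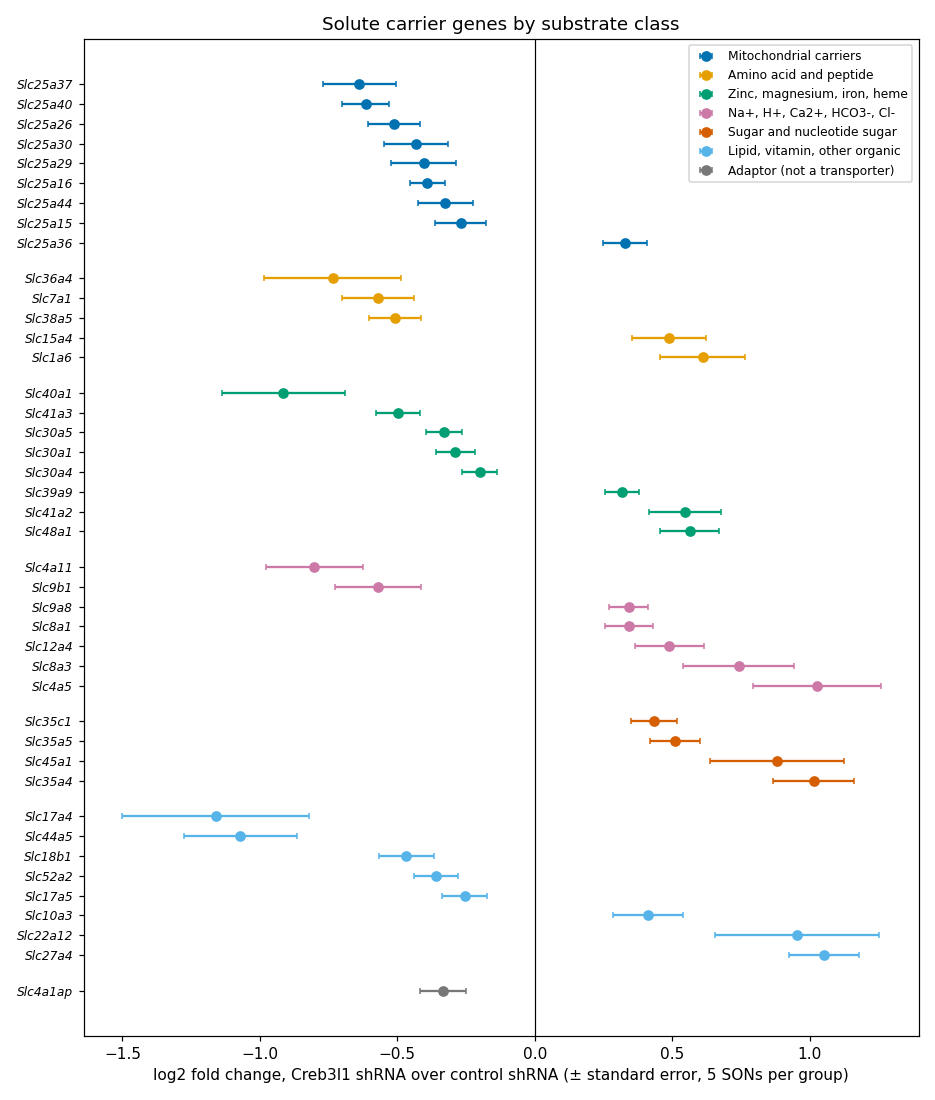
Log2 fold change of 42 of the 43 genes, Creb3l1 shRNA over control shRNA, by substrate class. Points are estimates and bars the standard error from 5 SONs per group. Points left of the line at 0 are lower in knockdown, which holds for 8 of 9 mitochondrial carriers and none of the 4 sugar carriers.

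All 43 genes passed the filter on low counts. In the quasi-likelihood test of edgeR, adjusted over 16286 genes by Benjamini-Hochberg, 29 of the 43 had an adjusted p under 0.05, against 7.86% of all genes. Of these, 16 were lower (4.49% of all genes) and 13 higher (3.36%). Of the other 14, 4 were mitochondrial carriers, Slc25a15, Slc25a29, Slc25a30 and Slc25a44, all of them lower. The rest were Slc17a4, at the low end of the range, Slc36a4, Slc22a12, Slc45a1, Slc8a3, Slc9b1, Slc15a4, Slc10a3, Slc17a5 and Slc30a4. The lowest knockdown SON lay above the highest control SON, or the reverse, in 32 genes (9.65% of all), 20 of them lower (5.50%) and 12 higher (4.16%). With the animal as a block, which sets both SONs of 1 animal side by side and leaves 4 in place of 8 residual degrees of freedom, 0 of the 43 had an adjusted p under 0.05 (0.0553% of all genes), and 43 had an unadjusted p under 0.05 (18.4%). DESeq2 gave 43 past its adjusted threshold (9.01% of 24286 genes). These counts are printed beside their shares over all genes and nothing is read from them, since the same contrast chose the genes.

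Direction was the same in all 5 animals for 41 of the 43 genes, against 20.0% of all genes tested. The exceptions were Slc30a4 and Slc10a3, and animal 3 was the one that differed in both. Relative to the mean of the 5 control SONs, the lower genes had a median log2 ratio of -0.51, -0.52, -0.33, -0.49 and -0.55 in the knockdown SONs of animals 1 to 5. The higher genes had medians of 0.55, 0.62, 0.48, 0.60 and 0.39 in the same order. Knockdown SON 3 was the closest of the 5 to the control mean in 16 of the 43 genes, and the others in 4 to 9. Creb3l1 in that SON was 8.69 CPM, the second lowest of the knockdown group.

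**Figure D2:**
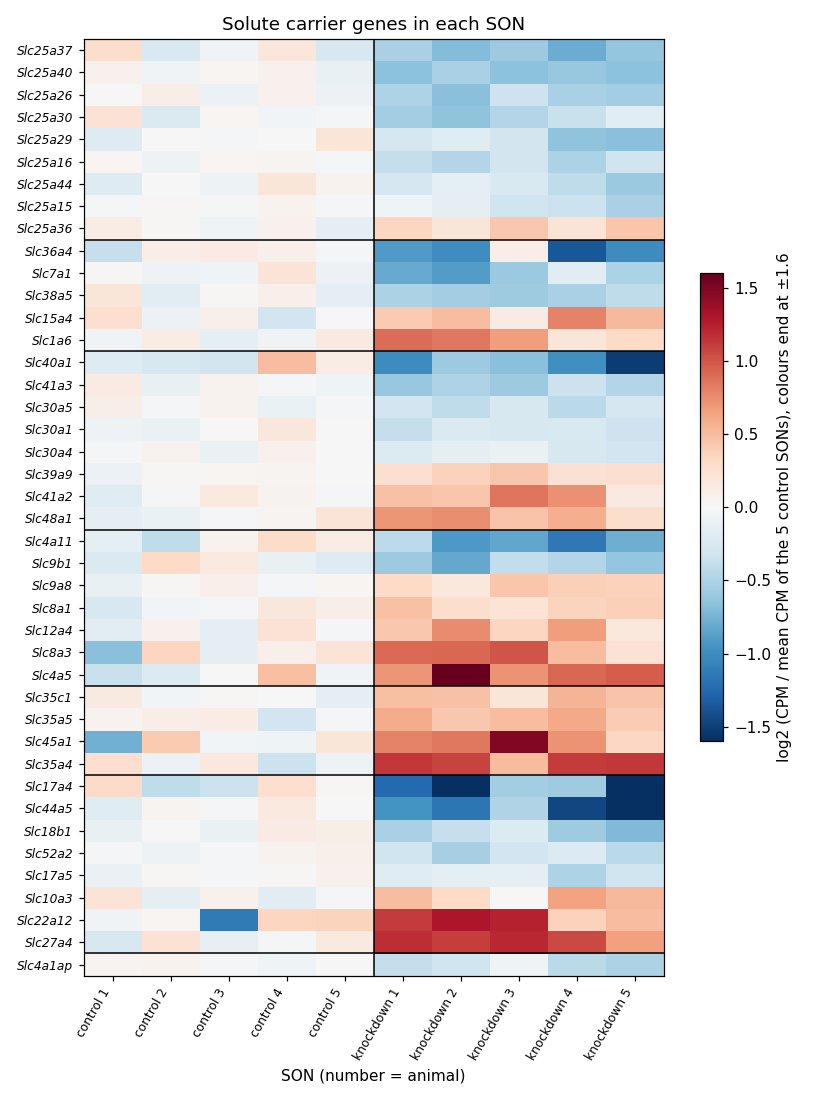
Level of 42 of the 43 genes in each SON as log2 of its CPM over the mean of the 5 control SONs, with classes divided by lines and colours ending at 1.6 in either direction. Knockdown columns are mostly of 1 colour within a row, and knockdown 3 is paler than its group in Slc36a4, Slc35a4 and Slc10a3.

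The mitochondrial carriers of the Slc25 family span the inner mitochondrial membrane and pass metabolites, nucleotides and cofactors between cytosol and matrix. Of 9 genes, 8 were lower and 1 was higher, with a median log2 fold change of -0.41. Values below are CPM in animals 1 to 5, control and then knockdown. Slc25a37, or mitoferrin-1, which brings iron into the matrix for heme and iron-sulphur clusters, had 10.6, 7.37, 8.39, 9.89 and 7.31 in control and 6.06, 5.40, 5.83, 5.01 and 5.65 in knockdown SONs. Its groups did not overlap, and the log2 fold change was -0.64 (standard error 0.13), the lowest of the 9. Slc25a40, which carries glutathione into mitochondria, had 11.5, 10.6, 11.3, 11.5 and 10.2 in control and 7.01, 7.69, 7.02, 7.25 and 7.002 in knockdown SONs. The groups were far apart for their spread, at 11.02 ± 0.590 and 7.20 ± 0.296, and the log2 fold change was -0.62 (standard error 0.09). Slc25a26 imports S-adenosylmethionine, the methyl donor, and its SONs had 11.6, 12.6, 10.9, 12.2 and 10.9 in control and 8.24, 7.32, 9.25, 8.15 and 7.91 in knockdown. Each knockdown SON was below each control SON, and the log2 fold change was -0.51 (SE 0.10). Slc25a40 overlaps Rundc3b in RefSeq, and Slc25a26 overlaps Lrig1, so that reads of these partners could enter the counts if strand was not used.

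Slc25a16, linked to coenzyme A in the matrix, had 54.2, 50.2, 54.1, 54.6 and 51.8 CPM in control and 40.7, 38.2, 43.2, 37.2 and 42.5 in knockdown SONs. There was no overlap and the log2 fold change was -0.39 (SE 0.06), for a gene that overlaps Dna2. Slc25a15, the ornithine carrier of the urea cycle, had 22.7, 23.4, 22.6, 24.1 and 22.8 in control and 22.1, 20.97, 18.5, 18.2 and 16.1 in knockdown SONs, -0.27 (SE 0.09) on the log2 scale. The highest knockdown SON, in animal 1, was just under the lowest control SON. The remaining 3 lower genes had overlapping groups. Slc25a30, kidney mitochondrial carrier protein 1, had 19.3, 13.97, 16.8, 15.9 and 16.1 in control and 11.1, 10.5, 11.8, 12.8 and 14.6 in knockdown SONs, or -0.43 (SE 0.12) on the log2 scale. Slc25a29, which carries basic amino acids, had 19.6, 22.8, 22.2, 22.9 and 25.8 in control and 18.6, 19.8, 18.5, 14.5 and 14.3 in knockdown SONs, or -0.41 (SE 0.12) on the log2 scale. Slc25a44, which brings branched-chain amino acids into mitochondria, had 30.9, 35.5, 33.6, 40.4 and 36.8 in control and 29.3, 31.9, 29.9, 26.8 and 23.5 in knockdown SONs, or -0.33 (SE 0.10) on the log2 scale. In each of these 3, 1 knockdown SON passed the lowest control SON, that of animal 5 for Slc25a30 and that of animal 2 for Slc25a29 and Slc25a44. Slc25a36, which carries pyrimidine nucleotides, went the other way, with 28.9, 26.96, 25.4, 28.1 and 24.1 in control and 33.8, 30.4, 35.9, 31.1 and 36.1 in knockdown SONs. Its lowest knockdown SON was above its highest control SON, and the log2 fold change was 0.33 (SE 0.08).

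**Figure D3:**
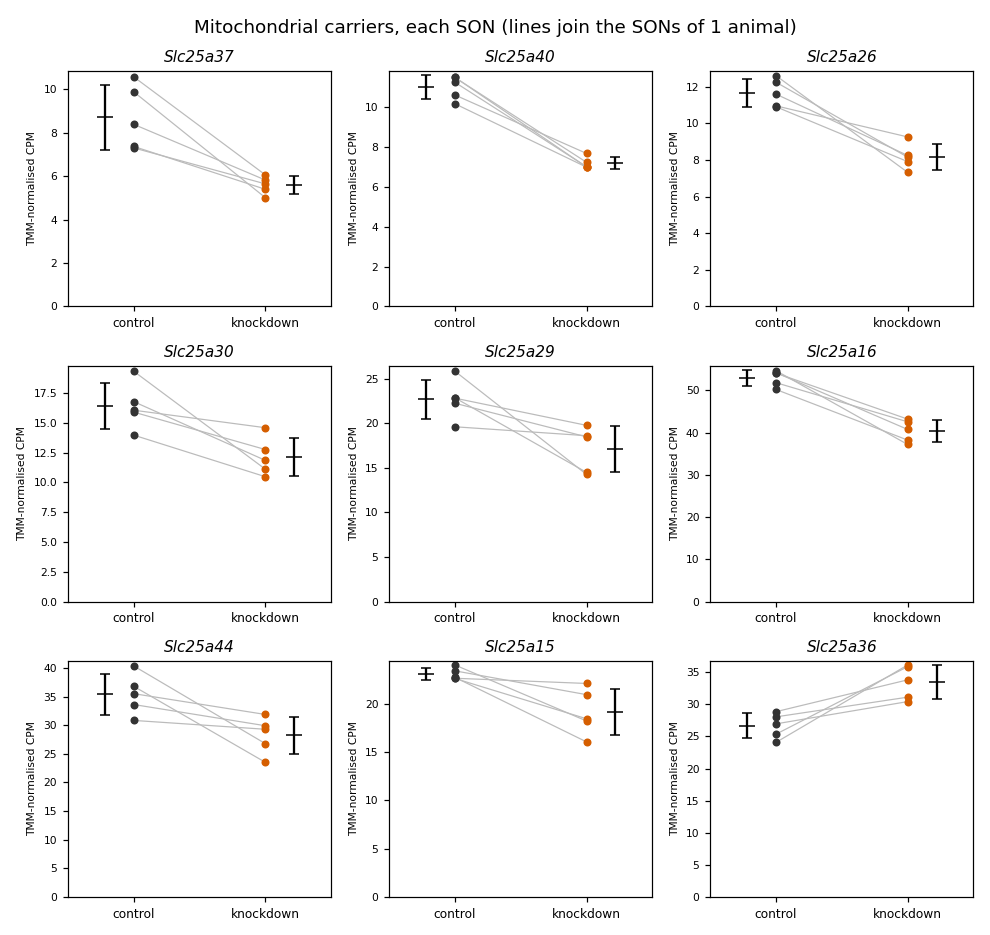
TMM-normalised CPM of the 9 mitochondrial carriers in each SON, with lines joining the 2 SONs of an animal and bars showing mean ± SD (n = 5). Lines run down in all 5 animals for 8 genes and up in all 5 for Slc25a36.

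The amino acid and peptide carriers were divided, with 3 of 5 lower and 2 higher and a median log2 fold change of -0.51. Slc7a1, the cationic amino acid transporter CAT1 that brings arginine and lysine into cells, had 101, 94.1, 95.5, 115 and 93.6 CPM in control and 57.2, 53.8, 66.2, 88.6 and 70.4 CPM in knockdown SONs. It was at 67.4% of control with no overlap, and the log2 fold change was -0.57 (SE 0.13). Slc36a4, the proton-assisted amino acid transporter PAT4, had 25.9, 36.1, 36.8, 35.6 and 33.1 in control and 17.9, 16.8, 36.1, 13.1 and 16.7 in knockdown SONs. In 4 animals the knockdown SON was below every control SON, while in animal 3 it was near its control, so that the log2 fold change of -0.74 (SE 0.25) became -1.07 without that SON. The gene overlaps LOC134479996 in RefSeq. Slc38a5, the glutamine transporter SNAT5, averaged 13.4 ± 1.43 CPM in control SONs against 9.38 ± 0.415 after knockdown, -0.51 (SE 0.10) on the log2 scale. Its knockdown SONs lay within a narrow range, all below the control SONs.

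The other 2 were higher. Slc1a6, the glutamate transporter EAAT4 known from Purkinje cells, had 5.71, 6.45, 5.37, 5.71 and 6.57 CPM in control and 11.1, 10.7, 9.49, 6.82 and 7.45 in knockdown SONs. Animals 4 and 5 were only just above the control SONs and animals 1 to 3 well above them, and the log2 fold change was 0.61 (SE 0.15). Slc15a4, the peptide and histidine transporter of endosomes and lysosomes, averaged 30.2 ± 4.41 against 42.3 ± 6.88 CPM, or 0.49 (SE 0.13) on the log2 scale. Its groups overlapped, because knockdown SON 3 was below control SON 1, and the gene overlaps Glt1d1.

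Carriers of zinc, magnesium, iron and heme numbered 8, with 5 lower and 3 higher and a median log2 fold change of -0.25. Slc40a1, ferroportin, the exporter of iron from cells, had 2.97, 2.87, 2.79, 4.81 and 3.71 CPM in control and 1.71, 2.29, 2.16, 1.73 and 1.19 in knockdown SONs. It was at 53.0% of control, without overlap, and its log2 fold change of -0.91 (SE 0.22) was the lowest of the class. Its counts were 37 to 160 per SON, and it overlaps Asnsd1, Asdurf and Plp2l1. Slc48a1, the heme transporter HRG1 of endosomes and lysosomes, had 106, 109.9, 116, 122 and 137 in control and 192, 198, 162, 177 and 143 in knockdown SONs. Every knockdown SON was above every control SON, and the log2 fold change was 0.56 (SE 0.11). With Slc25a37, the iron and heme carriers of the set were thus 2 lower, both of iron, and 1 higher, of heme.

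The magnesium transporters Slc41a2 and Slc41a3 went in opposite directions. Slc41a3, which is placed in mitochondria, had 24.8, 20.99, 23.7, 22.5 and 21.7 CPM in control and 15.00, 16.1, 15.2, 17.9 and 16.4 in knockdown SONs. Its groups were clearly apart, and the log2 fold change was -0.50 (SE 0.08). Slc41a2 had 18.9, 21.4, 24.03, 22.6 and 21.4 in control and 29.8, 29.3, 39.2, 35.9 and 23.9 in knockdown SONs, or 0.55 (SE 0.13) on the log2 scale. Knockdown SON 5 was a little under the highest control SON, and the other 4 were above all of them, for a gene that overlaps LOC134479650.

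The 3 genes of the set from the Slc30 family of zinc exporters, which move zinc out of the cytosol, were lower. Slc30a1, at the cell surface, averaged 36.2 ± 2.91 CPM in control SONs against 29.6 ± 1.31 after knockdown, -0.29 (SE 0.07) on the log2 scale. Slc30a5, which loads zinc into the early secretory pathway, averaged 58.8 ± 3.18 against 46.8 ± 2.59 CPM, -0.33 (SE 0.06). Slc30a4, of endosomes and vesicles, averaged 73.1 ± 3.55 against 63.6 ± 3.56 CPM, -0.20 (SE 0.06). The groups of Slc30a1 and Slc30a5 did not overlap, while in Slc30a4 animal 3 had 67.9 in both SONs. Slc39a9, the zinc transporter ZIP9, which moves zinc toward the cytosol, was higher, at 72.7 ± 2.60 CPM in control SONs against 90.5 ± 5.46 after knockdown, without overlap, and the log2 fold change was 0.32 (SE 0.06). The promoters of Slc30a1 and Slc39a9 shown above hold 3 and 2 motif matches.

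Carriers of sodium, protons, calcium, bicarbonate and chloride numbered 7, with 2 lower and 5 higher and a median log2 fold change of 0.34. The Slc4 members were opposed. Slc4a5, the sodium bicarbonate cotransporter NBCe2 known from choroid plexus, had 0.980, 1.07, 1.26, 1.74 and 1.21 CPM in control and 2.05, 3.85, 2.06, 2.38 and 2.45 in knockdown SONs. All knockdown SONs were higher, with animal 2 far above the rest, at 1.03 (SE 0.23) on the log2 scale and 29 to 124 counts per SON. Slc4a11, a borate transporter homologue that passes protons and water, had 4.66, 3.91, 5.37, 6.31 and 5.60 in control and 3.85, 2.73, 2.90, 2.34 and 3.001 in knockdown SONs. Control SON 2 was only just above knockdown SON 1, and the log2 fold change was -0.80 (SE 0.18). The choroid plexus markers listed had no symbol in the rows used, so whether that tissue was in a punch was not tested.

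Both sodium calcium exchangers of the set were higher. Slc8a3, or NCX3, had 15.3, 30.6, 21.6, 25.6 and 27.9 CPM in control and 45.4, 45.8, 48.6, 34.2 and 28.4 in knockdown SONs. Control SON 1 was low and knockdown SON 5 was under control SON 2, so that the groups overlapped, and the log2 fold change was 0.74 (SE 0.20). Slc8a1, or NCX1, averaged 40.1 ± 4.47 against 50.8 ± 3.23 CPM, 0.34 (SE 0.09) on the log2 scale, without overlap. Slc12a4, the potassium chloride cotransporter KCC1 that acts in cell volume, had 61.4, 72.1, 62.4, 81.2 and 67.8 in control and 93.3, 116, 87.2, 109.5 and 77.6 in knockdown SONs. Knockdown SON 5 was under control SON 4 and the other 4 were above all control SONs, at 0.49 (SE 0.12) on the log2 scale. Of the sodium proton exchangers, Slc9a8 (NHE8, of the Golgi and endosomes) had 27.3, 29.8, 31.3, 29.04 and 30.2 in control and 36.9, 33.2, 40.2, 38.5 and 38.3 in knockdown SONs. Its groups did not overlap, and the log2 fold change was 0.34 (SE 0.07). Slc9b1, a related exchanger known from testis, had 3.18, 4.66, 4.14, 3.43 and 3.24 in control and 2.49, 2.11, 2.83, 2.70 and 2.42 in knockdown SONs, or -0.57 (SE 0.16) on the log2 scale. It was lower without overlap, on 68 to 156 counts per SON, and overlaps Cisd2.

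All 4 sugar and nucleotide sugar carriers of the set were higher, with a median log2 fold change of 0.70. Members of the Slc35 family sit in the endoplasmic reticulum and Golgi membranes, where most of them bring in the activated sugars used to glycosylate proteins. Slc35a4, of the nucleotide sugar transporter subfamily A, had 60.2, 46.8, 56.1, 39.4 and 47.2 CPM in control and 109, 106, 71.2, 108 and 109 in knockdown SONs. Animals 1, 2, 4 and 5 had nearly equal knockdown values, animal 3 was lower but still above all control SONs, and the log2 fold change was 1.01 (SE 0.15). Slc35a4 overlaps LOC120098313, a protein-coding gene in RefSeq, so that reads of either could enter its count. Slc35a5, of the same subfamily, had 28.1, 29.2, 29.5, 21.98 and 26.8 in control and 40.98, 36.6, 38.2, 41.5 and 35.9 in knockdown SONs, or 0.51 (SE 0.09) on the log2 scale without overlap. Slc35c1, the GDP-fucose transporter of the Golgi, averaged 29.9 ± 2.19 against 40.4 ± 3.63 CPM, 0.43 (SE 0.08) on the log2 scale. The groups of Slc35c1 did not overlap, although knockdown SON 3 was close to control SON 1. Slc45a1, a proton-coupled sugar transporter of neurones, had 15.3, 34.9, 25.3, 24.9 and 29.8 in control and 44.99, 46.5, 72.6, 42.7 and 32.9 in knockdown SONs. Control SON 1 was the lowest and knockdown SON 3 by far the highest, the groups overlapped through knockdown SON 5, and the log2 fold change was 0.88 (SE 0.24).

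The carriers of lipids, vitamins and other organic solutes numbered 9, with 6 lower and 3 higher and a median log2 fold change of -0.36. They held both ends of the range over the 43 genes. Slc27a4, the fatty acid transport protein FATP4, which also activates long-chain fatty acids with coenzyme A, had 37.98, 53.4, 41.5, 44.5 and 50.2 CPM in control and 103, 97.9, 105, 94.7 and 71.5 in knockdown SONs. It was above all control SONs in every animal, least in animal 5, and its mean was 207% of control. The log2 fold change was 1.05 (SE 0.13), the highest of the set. Its promoter is the only one of the 33 that held the long motif, which 1.43% of all rat promoters hold. A link between motif and change was not tested. Slc44a5, a choline transporter-like protein, had 5.54, 6.51, 6.18, 7.07 and 6.28 in control and 3.25, 2.82, 4.53, 2.31 and 2.10 in knockdown SONs. It was at 47.5% of control, without overlap, and the log2 fold change was -1.07 (SE 0.20). Slc17a4, an anion transporter of the sodium phosphate type, had 4.26, 2.60, 2.70, 4.12 and 3.48 in control and 1.45, 0.838, 2.33, 2.31 and 0.742 in knockdown SONs. Animals 2 and 5 had the lowest knockdown values and animals 3 and 4 were only just below the lowest control SON, at -1.16 (SE 0.34) on the log2 scale and 23 to 137 counts per SON.

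**Figure D4:**
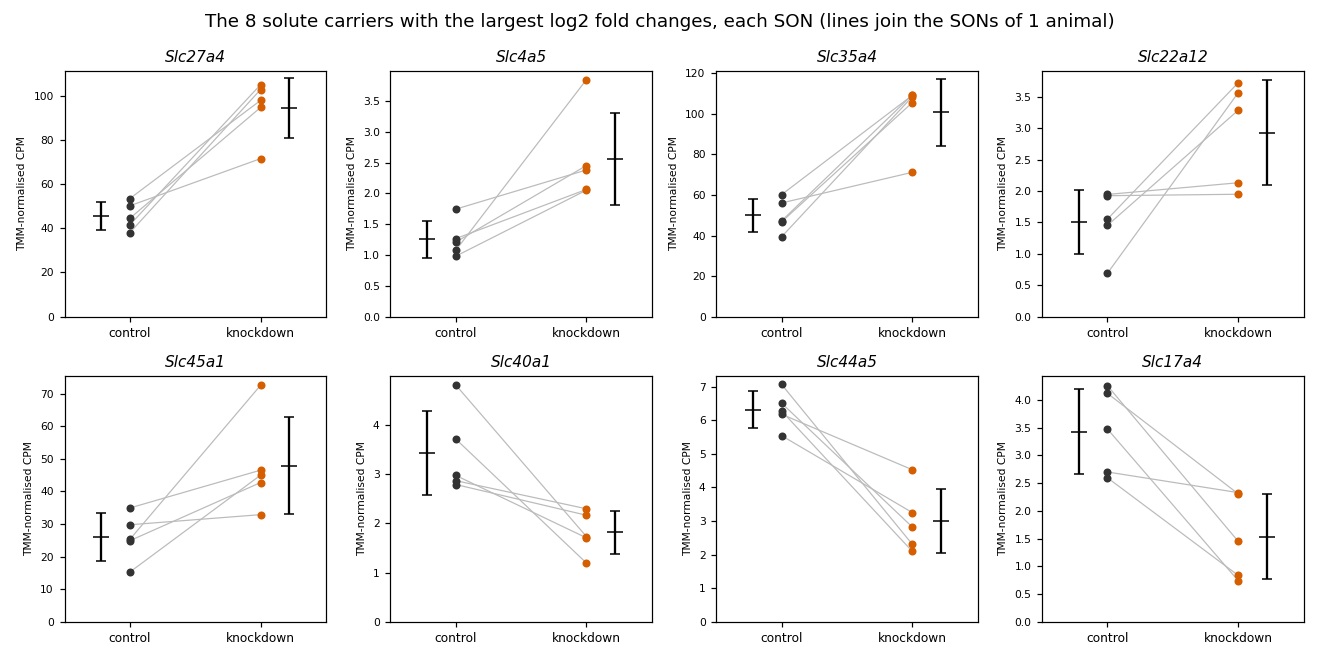
TMM-normalised CPM in each SON for the 8 genes with the largest absolute log2 fold changes, from Slc27a4 at 1.05 to Slc17a4 at -1.16. Lines join the SONs of 1 animal and bars show mean ± SD (n = 5), and Slc45a1 is the gene of these 8 whose groups overlap.

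Other genes of this class are given by their means. Slc18b1, a vesicular polyamine transporter, averaged 29.2 ± 2.28 against 21.1 ± 2.77 CPM in control and knockdown SONs, -0.47 (SE 0.10) on the log2 scale. It was lower in every animal and had no overlap. Slc52a2, a riboflavin transporter, averaged 18.6 ± 0.834 against 14.5 ± 1.20 CPM, -0.36 (SE 0.08), for a gene that overlaps Fbxl6 and Tmem249. Slc17a5, sialin, which releases sialic acid from lysosomes, averaged 28.01 ± 1.27 against 23.5 ± 2.28 CPM, -0.26 (SE 0.08). Neither had overlapping groups. On the higher side, Slc22a12, the urate transporter URAT1 known from kidney, averaged 1.51 ± 0.509 against 2.93 ± 0.830 CPM, 0.95 (SE 0.30), on 24 to 120 counts per SON. Its lowest knockdown and highest control SON were nearly equal, at 1.95 and 1.94. Slc10a3, an orphan relative of the bile acid transporters, averaged 18.1 ± 2.07 against 24.1 ± 3.89 CPM, 0.41 (SE 0.13), and knockdown SON 3 was below control SON 3.

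Slc4a1ap, or kanadaptin, shares the symbol of the family as a partner protein of an anion exchanger and is no transporter. It had 52.6, 52.8, 50.1, 48.6 and 50.6 CPM in control and 39.1, 40.9, 48.6, 37.8 and 35.9 in knockdown SONs. In animal 3 the knockdown SON, at 48.56, was only just under the lowest control SON, at 48.61, and the log2 fold change was -0.33 (SE 0.08). The counts behind the 43 genes ran from 23 for Slc17a4 to 6399 for Slc48a1 in a SON, and 7 genes had a SON with under 100 counts.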

How the data were processed

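RNA-seq counts of 10 SONs were analysed, 5 per group, with groups from the sample labels. Animal numbers here are the replicate numbers of those labels, and the header of the counts numbers some animals otherwise. The libraries came from poly(A) RNA and a stranded kit. The authors used STAR with the Rn6 rat genome and featureCounts for counting, and the deposited values are raw counts, not normalised. The submitters' processing notes also name CASAVA, FastQC and DESeq2 1.28.1. Strand and multi-mapping settings are not given in the sources used here, so reads of overlapping genes cannot be told apart. RefSeq lists an overlapping gene of any kind for 22 of the 43 solute carriers, and an overlapping protein-coding gene for 10 of them. Overlap was taken over whole gene spans, and only the protein-coding partners are named above.

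R 4.3.3 and edgeR 4.0.16 were used. The filter was filterByExpr at a minimum count of 10, scaling was by TMM factors, and groups were compared by the quasi-likelihood test with no term for the animal, since the sources used here state none. The study itself used DESeq2. A gene was called at a Benjamini-Hochberg adjusted p under 0.05 over all 16286 genes. The standard error (SE) of a log2 fold change was its size divided by the root of F. The steps were tested on simulated data.

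The SONs of 1 animal form a pair, since control and knockdown virus went into the 2 sides of the same animal. As a check of the pairing, deviations from the group mean were correlated between the 2 sides over all genes, which gave -0.117, 0.45, -0.44, -0.324 and -0.549 in animals 1 to 5. The fit with the animal as a block is given beside the counts of called genes. All replicates differed by more than sampling noise (lowest chi-square per degree of freedom 29.1).

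The alternatives tried were the animal block, DESeq2 1.42.0, limma-voom (limma 3.58.1), RLE factors or plain library size for scaling, a filter of 10 counts in each SON or none, and each SON left out in turn. The genes, their substrate classes and the marker lists were chosen with earlier results of these data known. Values in every SON are given for the 3 genes of each class with the largest absolute log2 fold change and at least 1 CPM in a group, for members of 1 numbered family in opposite directions, and for the highest control CPM of each class, 29 genes in all. A further 13 are given by mean and SD, and 1 gene enters the counts and medians but is not reported here. Columns of the authors' own comparisons, which hold fold changes and p-values, were not used as results.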

Additional observations from a re-analysis of the deposited data

Results flagged for a closer look

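The 43 genes under each hairpin make 86 groups of 5 SONs, and in 4 of these the highest or lowest SON had a gap to its neighbour of over 0.71 of the range, which is Dixon's limit for 5 samples. Chance alone flags about 1 in 20 such groups. Values are TMM-normalised CPM.

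Slc36a4 in the knockdown SON of animal 3 was 36.1, where the rest of its group had 13.1 to 17.9, and the log2 fold change without it was -1.07. Slc35a4 in the same SON was 71.2, against 105.6 to 109.4, with 1.10 without it. Slc35c1 in the same SON was 34.2, against 41.2 to 43.7, with 0.47 without it. Slc4a5 in the knockdown SON of animal 2 was 3.85, against 2.05 to 2.45, with 0.82 without it. What set these SONs apart was not tested.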

How the results depend on the processing

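In all fits 25 of the 43 genes were lower in knockdown, and no log2 fold change of a gene reversed or moved by more than the spread between replicates. The same contrast on the same counts chose the genes, so a direction kept in all fits is no test of it. Leaving out a SON moves a group mean by less than the spread between replicates. The fits without a SON could therefore hardly exceed that limit, and staying within it is no check. The largest shift was 0.34, in Slc36a4 without the knockdown SON of animal 3. With the animal as a replicate block, 0 of the 43 genes and 9 of all genes were past the threshold, against 29 and 1280 without it. Every animal gave both SONs, so the block hardly moves an estimate, and the unchanged directions are no check. DESeq2 gave 2188 of all genes and 43 of the 43. Between 22 (no filter) and 32 (library size only, limma-voom) of the 43 were past the threshold in the other fits with all SONs. Over all genes, no filter gave 950, library size only 1480 and limma-voom 1353. With library size only, 23.6% of all calls were higher in knockdown, against 42.8% with TMM.

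Dropping a SON can only keep or raise the number of genes without overlap, so that number is not given. Leaving out 1 SON gave 15 to 29 of the 43 past the threshold. The count was 15 without control SON 5 or without knockdown SON 2, 17 without control SON 3, 16 without knockdown SON 1 and 19 without knockdown SON 4. Over all genes it went from 519 without knockdown SON 1 to 1699 without knockdown SON 3, with 817, 558 and 613 without control SONs 2, 3 and 5, and 614 and 834 without knockdown SONs 2 and 4. The cause was not tested. Counts over all solute carrier genes of the rat were not run, because no table used here pairs their symbols with the identifiers. Depth limits the 7 genes with under 100 counts in a SON, and hairpin and side of the brain cannot be told apart.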
